A study of Mus musculus with 11 samples.

Results

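The genes described here are the 78 genes of mouse chromosome 7 made up of the olfactory receptor genes Olfr600 to Olfr699 and 4 genes that lie among them, Olfm5, Ubqlnl, Ubqln5 and Trim6. They were chosen by symbol out of 19938 measured genes. Of them 74 are olfactory receptor genes, and all 78 were matched in the RefSeq gene table. A single-gene probe set was a condition of the choice, and 7 further RefSeq genes named Olfr600 to Olfr699 have none. The set was put together because Olfm5 had already been seen to be high in ETP and DN2, so the levels in ETP and DN2 against the other populations are given as a description and are not used as support for anything. Transcript levels came from 11 Affymetrix arrays of cells of C57BL/6J mice, and no treatment or genetic change is named for any group. From the thymus came ETP (early thymic precursors, 2 arrays), the later stage DN2 (double negative 2, a single array) and the stage after it, DN3 (double negative 3, 2 arrays). From the marrow came HSC (hematopoietic stem cells), LMPP (multipotent progenitors primed for the lymphoid fates) and CLP (the common progenitors of lymphocytes), with 2 arrays each. The sources used here state neither the sort gates nor the age or number of the animals, so p-values measure only the spread between these samples, which may be technical.

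Olfactory receptors are G protein-coupled receptors that bind odorants on sensory neurons of the nose. Each such neuron expresses very few of the many receptor genes, which sit in clusters of single-exon coding units and are silent in most other tissues. The cluster described here also holds the beta-globin genes, ubiquilin-like genes and antiviral Trim genes. Olfm5 encodes a secreted-type protein with an olfactomedin domain, Ubqlnl and Ubqln5 belong to the ubiquilin family of ubiquitin-binding shuttle proteins, and Trim6 is a ubiquitin ligase of the tripartite motif family. ETP are the first T lineage progenitors of the thymus, DN2 follow them, and DN3 are the stage at which T lineage commitment is complete.

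All values are log2 intensities. The arrays had medians between 6.01 and 6.12 over all probe sets, and the median of the 1027 measured olfactory receptor genes lay between 3.97 and 4.20 on every array, which serves here as a rough level of receptor genes that are off. Markers of HSC, LMPP, CLP and DN3 were mostly highest where the labels put them, but those of ETP and DN2 mostly were not. Il2ra, the surface marker that appears at DN2, averaged 11.40 in DN2, 11.27 in DN3 and 7.32 in ETP, against 4.26 to 4.40 in the marrow populations. Kit, a marker of early progenitors, averaged 9.37 in ETP and 9.24 in DN2, against 7.02 in DN3, 8.15 in CLP, 9.23 in LMPP and 9.47 in HSC. Slamf1 was highest in HSC (7.54), Flt3 in LMPP (10.61, and 10.58 in CLP) and Ebf1 in CLP (9.27). Hlf, a stem cell gene, was higher in LMPP (8.95) than in HSC (8.62), and Cd44 averaged 8.37 in ETP, against 8.51 in both LMPP and CLP. Hes1, listed for ETP, averaged 8.23 in ETP, 8.24 in DN2 and 8.40 in DN3. Gata3, listed for DN2, averaged 7.82 in DN2 and 8.02 in DN3. Cd3e, a CD3 chain of the T cell receptor complex, stood at 9.62 in DN3 and at 6.06 to 7.07 in the other 5 populations. For ETP, DN2 and DN3 a free-text field says marrow and the tissue field says thymus, and the tissue field was followed.

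The sequences around the starts of 5 of these genes are shown because these genes, close together on the chromosome, were higher in ETP and DN2 and lie on one strand. Ubqlnl, also higher, has no window in the table used, and Trim6, whose window on the plus strand holds 3 CANNTG and none of the other motifs searched, is not shown. The sequences are RefSeq windows of build GRCm38.p6, all on the minus strand, each with 250 bases before and 50 bases after the annotated start and written 5′ to 3′. The Olfm5 window is chr7:104164767-104165066, with capitals on its match to AGATAA, letters that GATA factors bind. The Olfr648 window is chr7:104180357-104180656 and the Olfr649 window is chr7:104190156-104190455, with capitals on the start codon. The Olfr643 window is chr7:104059551-104059850 and the Olfr644 window is chr7:104068980-104069279, with capitals on the longest run that these 2 share.
Olfm5: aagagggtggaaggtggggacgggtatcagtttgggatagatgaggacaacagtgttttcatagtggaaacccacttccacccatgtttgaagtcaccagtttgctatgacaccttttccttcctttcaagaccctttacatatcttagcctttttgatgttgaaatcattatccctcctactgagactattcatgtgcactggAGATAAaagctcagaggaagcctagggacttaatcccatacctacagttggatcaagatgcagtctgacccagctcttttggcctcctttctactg
Olfr648: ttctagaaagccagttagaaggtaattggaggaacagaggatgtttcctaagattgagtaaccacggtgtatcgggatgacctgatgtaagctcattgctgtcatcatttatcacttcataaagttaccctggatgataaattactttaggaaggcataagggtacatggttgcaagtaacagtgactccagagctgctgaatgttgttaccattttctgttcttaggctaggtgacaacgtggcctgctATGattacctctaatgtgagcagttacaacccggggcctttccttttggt
Olfr649: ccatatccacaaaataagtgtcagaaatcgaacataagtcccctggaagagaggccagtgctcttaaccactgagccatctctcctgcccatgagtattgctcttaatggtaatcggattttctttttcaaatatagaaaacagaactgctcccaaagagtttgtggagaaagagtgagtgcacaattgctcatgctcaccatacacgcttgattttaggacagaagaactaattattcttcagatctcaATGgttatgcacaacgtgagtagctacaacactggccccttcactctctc
Olfr643: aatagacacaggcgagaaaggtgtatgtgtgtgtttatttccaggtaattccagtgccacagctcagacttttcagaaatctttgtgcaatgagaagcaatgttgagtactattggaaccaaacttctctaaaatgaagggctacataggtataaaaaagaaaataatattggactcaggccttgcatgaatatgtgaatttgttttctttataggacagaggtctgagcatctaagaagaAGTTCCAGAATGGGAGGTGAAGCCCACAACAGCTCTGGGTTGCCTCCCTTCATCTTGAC
Olfr644: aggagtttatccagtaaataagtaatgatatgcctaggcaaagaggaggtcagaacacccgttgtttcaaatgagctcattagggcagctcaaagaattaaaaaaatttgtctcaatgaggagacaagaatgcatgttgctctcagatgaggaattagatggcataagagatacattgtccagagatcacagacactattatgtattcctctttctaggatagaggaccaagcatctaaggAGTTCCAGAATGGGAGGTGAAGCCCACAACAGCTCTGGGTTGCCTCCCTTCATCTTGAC
In these 4 receptor windows the annotated start is the ATG itself, as in 48 of the 64 receptor members with a window, so their first exons and promoters may lie outside the letters shown. Olfr643 and Olfr644 were identical over 59 bases, from position 242 of the window to its end, whereas Olfr648 and Olfr649 shared no run longer than 8 bases. Olfr649, Olfr648 and Olfm5 follow each other in this order in the direction of transcription.

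Both strands of the windows were searched for 7 motifs, and matches of different motifs were allowed to overlap. These were the E-box that bHLH factors bind (CANNTG), the letters that TCF factors bind (CTTTGA), those of RBPJ, the factor of Notch signalling (TGGGAA), and those of RUNX factors (TGTGGT). The rest were letters of GATA factors (AGATAA), of Ebf factors (CCCNNGGG) and of homeodomain factors (TAATTA). Each was searched in this form only, so other letters that the same factors may bind were not counted. The Olfm5 window held 1 AGATAA, starting at position 205, and 2 CANNTG. Of 32851 windows of this length 11.2% hold AGATAA and 72.3% hold CANNTG. The Olfr648 and Olfr643 windows held none of the 7 motifs, Olfr649 held 1 CANNTG and 1 TAATTA, and Olfr644 held 2 CANNTG and 1 CTTTGA. The letters CTTTGA occur in 5257 and TAATTA in 1738 of those windows, the last being 5.29%, and TAATTA in 18.6% of the 948 receptor windows. AGATAA occurs in 28.0% of the receptor windows. No motif was found in all 5 windows shown.

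Olfm5 was bright in ETP and DN2 and near the array median elsewhere. Its level was 8.80 and 8.68 on the ETP arrays and 9.51 on the DN2 array, against 5.78 and 6.21 in HSC, 6.05 and 6.27 in LMPP, 5.64 and 5.93 in CLP, and 5.95 and 6.11 in DN3. The lowest of the 3 ETP and DN2 arrays lay 2.41 above the highest of the 8 other arrays, and the means were 9.0 ± 0.45 and 5.99 ± 0.21 (SD, 3 and 8 arrays), an 8.03-fold difference. In ETP and DN2 its intensity exceeded that of 86.2% to 92.6% of all genes, against 36.2% to 51.8% on the other arrays.

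The receptor genes Olfr648 and Olfr649, the next measured genes in RefSeq order, followed the same pattern from a lower starting level. Olfr648 stood at 7.71 and 7.44 in ETP and 7.56 in DN2, against 3.71 and 4.30 in HSC, 4.43 and 4.27 in LMPP, 3.93 and 4.01 in CLP, and 3.96 and 4.23 in DN3. The means were 7.57 ± 0.14 in ETP and DN2 and 4.10 ± 0.24 elsewhere (SD, 3 and 8 arrays), an 11.1-fold difference, and the lowest high array lay 3.01 above the highest other. Olfr649 stood at 8.94 and 8.12 in ETP and 8.49 in DN2, against 4.34 and 4.35 in HSC, 4.93 and 4.74 in LMPP, 5.0 and 4.44 in CLP, and 4.49 and 4.64 in DN3. Its means were 8.52 ± 0.41 and 4.62 ± 0.25 (SD), a 14.9-fold difference without overlap. Among all 19938 genes these 2 receptors had the largest differences of this kind (ranks 1 and 2), Olfm5 had rank 6 and Ubqlnl, below, rank 21. Olfr649 was the brightest of the 1027 receptor genes on ETP replicate 1 and the second on the other 2 arrays of ETP and DN2. On the 8 other arrays Olfr649 had ranks from 247 to 427 and Olfr648 ranks from 426 to 636 of 1027, in the midst of the receptor genes. Where a gene is near that level an intensity may be mostly background, so a fold may understate the ratio of transcripts.

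Ubqlnl, on the other side of Olfm5, was higher in ETP and DN2 by less and with more spread. It stood at 6.28 and 7.14 in ETP and 6.85 in DN2, against 5.14 and 4.92 in HSC, 5.44 and 5.18 in LMPP, 5.17 and 5.04 in CLP, and 4.92 and 4.89 in DN3. The lowest ETP array lay 0.85 above the highest other array, and the means were 6.76 ± 0.43 and 5.09 ± 0.18 (SD), a 3.18-fold difference. These 4 genes, Ubqlnl, Olfm5, Olfr648 and Olfr649, were the members whose ETP and DN2 arrays all lay above all others and whose means differed at least 2-fold. The same held for 43 of all genes (0.216%) and for 0 of the 953 other receptor genes. With no threshold of size 6 members had ETP and DN2 arrays that all lay above the others, against 262 of all genes (1.31%).

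**Figure D1:**
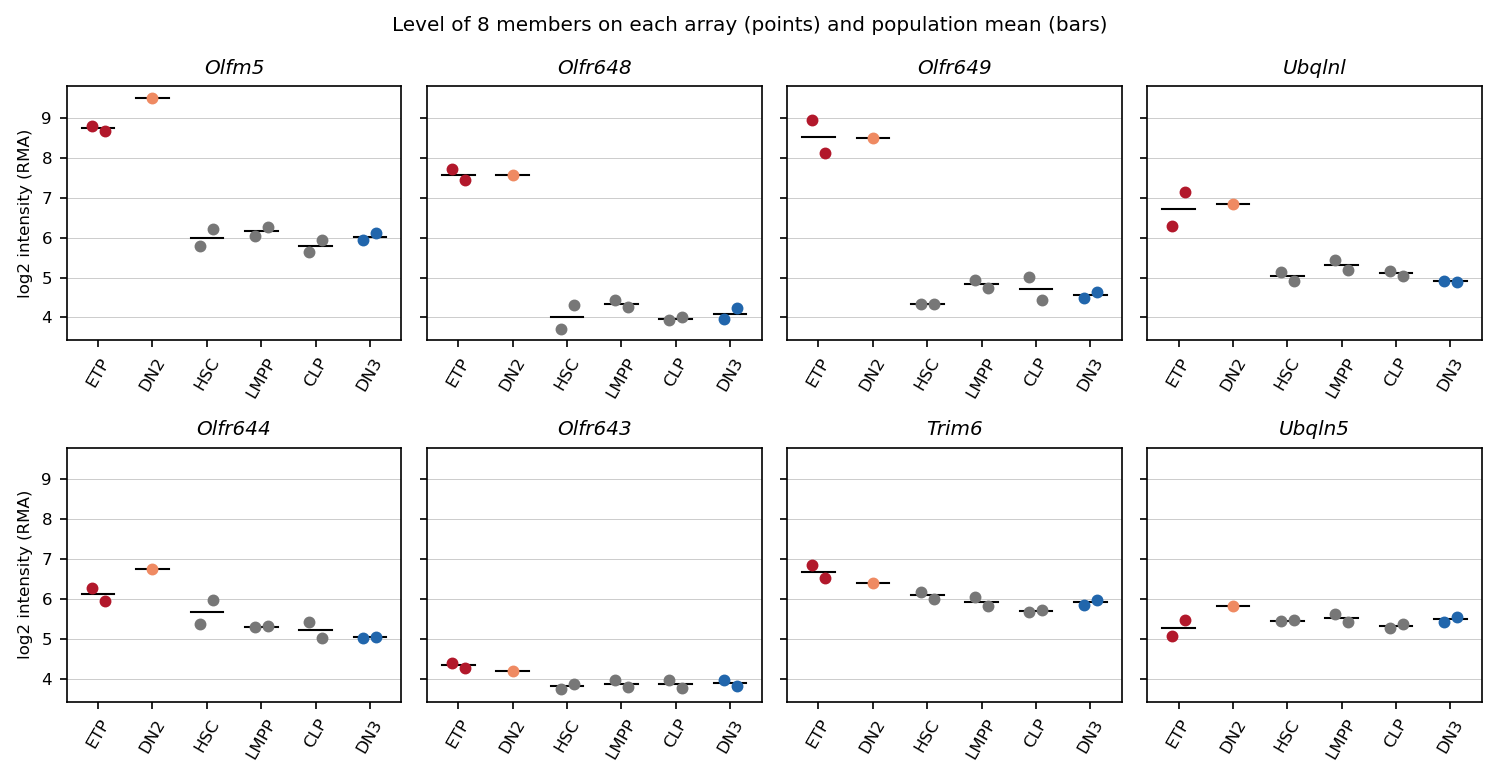
Log2 intensity of 8 members on each of the 11 arrays (points) with the mean of each population (bars), ETP and DN2 on the left. Olfm5, Olfr648, Olfr649 and Ubqlnl stand apart in ETP and DN2, Olfr644, Olfr643 and Trim6 differ by less, and Ubqln5 overlaps.

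Further genes of the block showed smaller differences. Olfr644 stood at 6.29 and 5.96 in ETP and 6.77 in DN2, against 5.37 and 5.97 in HSC, 5.30 and 5.32 in LMPP, 5.44 and 5.02 in CLP, and 5.04 and 5.05 in DN3. The groups overlapped by 0.016, through HSC replicate 2 and ETP replicate 2, and the means differed 2.03-fold. Olfr643 stood at 4.40 and 4.28 in ETP and 4.20 in DN2, against 3.75 to 3.98 on the 8 other arrays. It did not overlap but stayed close to the level of receptors that are off, and whether probes shared with Olfr644, with which it has 59 identical bases, add to it was not tested.

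Trim6, at the other end, stood at 6.85 and 6.53 in ETP and 6.39 in DN2, against 6.18 and 6.00 in HSC, 6.05 and 5.83 in LMPP, 5.68 and 5.72 in CLP, and 5.86 and 5.99 in DN3. The means differed 1.60-fold without overlap. Ubqln5 showed no such pattern, at 5.07 and 5.47 in ETP and 5.82 in DN2 against 5.29 to 5.62 on the other arrays. DN2 was its highest array and ETP replicate 1 its lowest.

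In RefSeq order the differences formed a run with its peak at Olfr649 and Olfr648. Of the 20 genes nearest to Olfm5, 10 on each side, 13 were measured. From the low-coordinate side the log2 differences were 0.0081 for Olfr640, -0.099 for Olfr641, -0.14 for Olfr642, 0.43 for Olfr643, 1.02 for Olfr644, -0.036 for Olfr645, 0.19 for Olfr646 and -0.0015 for Ubqln5. They were 1.67 for Ubqlnl, 3.01 for Olfm5, 3.47 for Olfr648, 3.90 for Olfr649 and 0.68 for Trim6. Trim34a, an antiviral Trim gene beyond Trim6, differed by 0.63, and its arrays overlapped. The high genes did not form a single unbroken stretch, since Olfr645, Olfr646 and Ubqln5 lie between Olfr644 and Ubqlnl and differed by at most 0.19.

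**Figure D2:**
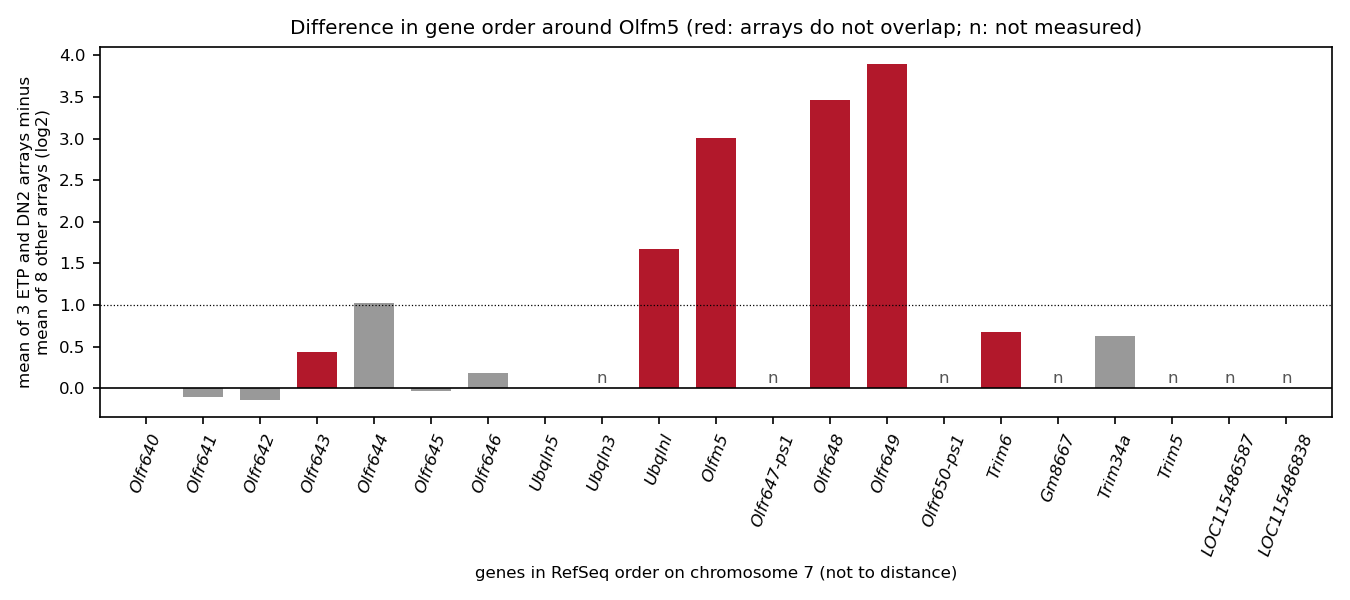
Difference in mean log2 intensity, ETP and DN2 minus the other populations, for Olfm5 and the 10 genes on each side in RefSeq order, drawn by order and not by distance. Red bars mark genes whose 3 ETP and DN2 arrays all lie above the 8 others, n marks genes not measured here, and the dotted line is a 2-fold difference. Olfm5, Olfr648 and Olfr649 reach 3.01 to 3.90.

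The other 71 members differed little between the populations. Their differences ran from -0.33 for Olfr657 to 0.19 for Olfr646 with a median of -0.026, and 26 were above and 45 below 0, against a median of -0.014 over all genes. The range of a gene over the 11 arrays had a median of 0.47 and reached 1.05 in Olfr657, where HSC replicate 2 and CLP replicate 1 were high. The dimmest receptors were Olfr624, at 3.10 to 3.23 in ETP and DN2 against 2.94 to 3.48, Olfr630, at 3.21 to 3.48 against 3.20 to 3.56, and Olfr631, at 3.28 to 3.40 against 3.25 to 3.62. Of the brightest by mean, Olfr678 stood at 6.27 to 6.64 in ETP and DN2 against 6.46 to 6.93 elsewhere, Olfr646 at 6.00 to 6.60 against 5.84 to 6.17, and Olfr666 at 6.00 to 6.07 against 5.97 to 6.17. All 6 overlapped, so a bright probe set alone did not mark a gene that differed. A further 8 probe sets that carry the name of a member together with another receptor were left out, and their differences ran from -0.21 to -0.021.

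**Figure D3:**
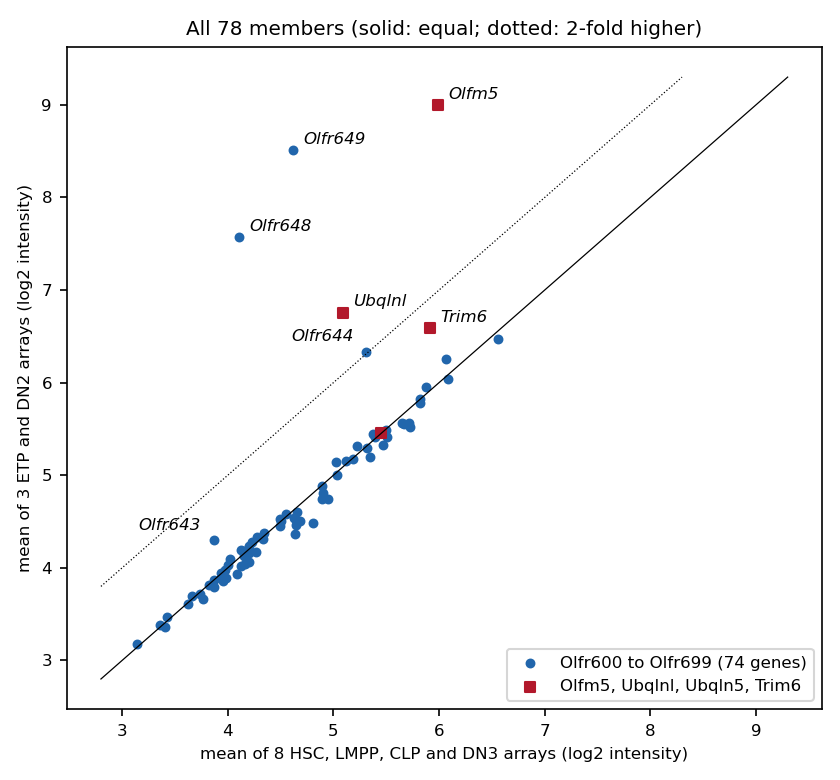
Mean log2 intensity of the 78 members on the 3 ETP and DN2 arrays (vertical) against the 8 other arrays (horizontal). The solid line is equality and the dotted line a 2-fold higher level in ETP and DN2. Olfm5, Olfr648, Olfr649 and Ubqlnl lie above the dotted line, Olfr644 lies on it, and most receptors lie along the solid line between 3 and 6.6.

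The related receptors of the same families, by their RefSeq synonyms, did not share the pattern. Olfr648 (MOR31-12) and Olfr649 (MOR31-7) belong to the MOR31 family, of which 9 other members were measured. Those 9, among them Olfr617, Olfr618, Olfr619, Olfr651, Olfr690 and Olfr691, had differences from -0.14 to 0.085, and none had arrays without overlap. Of the MOR31 genes, Olfr547, Olfr549 and Olfr67 lie outside the names Olfr600 to Olfr699. Olfr643 (MOR13-2) and Olfr644 (MOR13-1) belong to the MOR13 family, whose 4 other measured members Olfr640, Olfr641, Olfr642 and Olfr645 had differences from -0.14 to 0.0081. Over the whole receptor repertoire, 0 of the 953 other receptor genes had ETP and DN2 arrays that all lay above the others. The highest difference was that of Olfr99, 0.61, at 7.26 to 7.87 in ETP and DN2 against 6.56 to 7.42. Among the 65 genes Olfr500 to Olfr599 the highest difference was 0.17, for Olfr597. Among the 65 genes Olfr700 to Olfr799 it was 0.17, for Olfr792. These ranges were taken by name, and their places on the chromosomes were not checked.

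**Figure D4:**
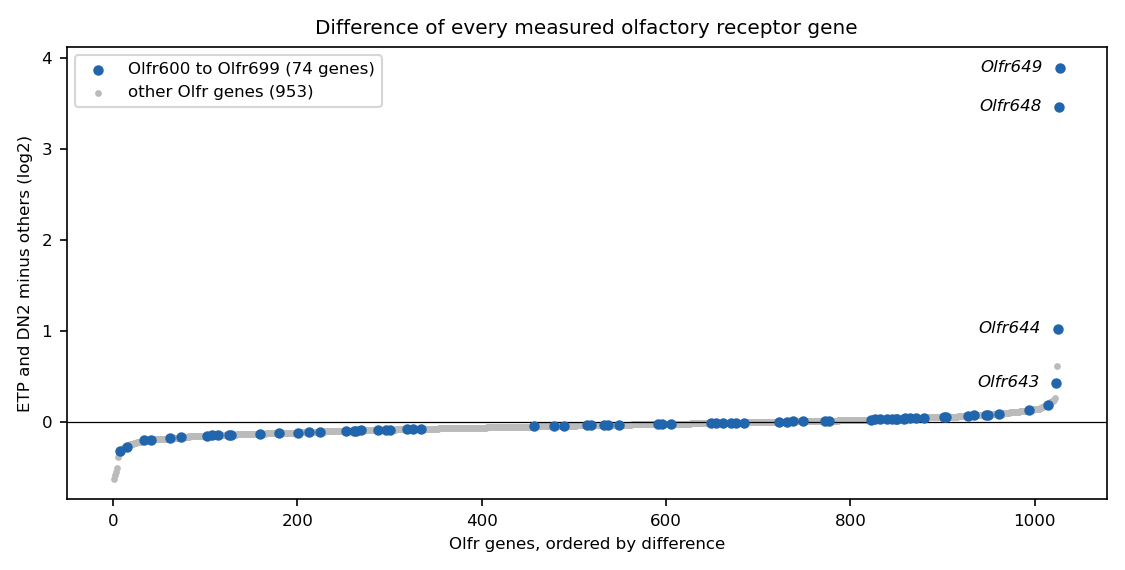
Difference in mean log2 intensity, ETP and DN2 minus the other populations, of every measured olfactory receptor gene in order of size. Blue points are the 74 genes Olfr600 to Olfr699 and grey points the 953 others. Olfr649 and Olfr648 lie at 3.90 and 3.47, and Olfr644 at 1.02.

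A limma fit over all 19938 genes, with Benjamini-Hochberg adjustment, called 7 of the 78 members in ETP and DN2 against the mean of the other 4 populations, all higher, with 1.95% of all genes called higher, 1.26% lower and 3.21% in either direction. They were Olfm5, Ubqlnl, Olfr643, Olfr644, Olfr648, Olfr649 and Trim6. Nothing is read from the count of members, since the members were proposed from this contrast. The fit also called 3 of the 953 other receptor genes there. Of the 7, Olfr643 was not called without any 1 of HSC replicate 1, LMPP replicate 2, CLP replicate 2, either ETP replicate or either DN3 replicate, nor with the replicate number as a block.

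Comparisons other than the contrast behind the choice of members called none of them in the full set of arrays. The set was put together around Olfm5 because it was high in ETP and DN2 only. Small differences of Olfm5 and of genes like it, between ETP and DN2 or among the other populations, were therefore partly set by the choice. DN2 against ETP called 0 of 78 members, with 0.998% of all genes called (0.321% higher, 0.677% lower in DN2). It called 1 of the 953 other receptor genes. At an unadjusted limma p under 0.05 there were 3 members (3.85%), against 7.19% of all genes. The smallest adjusted p was that of Olfm5, 0.77 ± 0.20 higher in DN2 (log2, SE of the fit; limma adjusted p = 0.177), at 9.51 against 8.80 and 8.68. Olfr648 differed by -0.016 ± 0.23 and Olfr649 by -0.039 ± 0.30, and Olfr644 was 0.64 ± 0.25 higher in DN2 (limma adjusted p = 0.534). Ubqln5 was 0.55 ± 0.18 higher in DN2 (limma adjusted p = 0.351), and Ubqlnl 0.14 ± 0.28 and Trim6 -0.30 ± 0.17.

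The 4 populations outside ETP and DN2 were compared next. The limma F test over HSC, LMPP, CLP and DN3 called 0 of 78 members, against 12.6% of all genes. It called 10 of the 953 other receptor genes, so few calls were common to receptor genes as a whole. At an unadjusted p under 0.05 there were 4 members (5.13%), against 23.9% of all genes. The smallest adjusted p was that of Olfr654 (limma, 0.0845), at 4.55 and 4.35 in DN3, 4.88 and 4.55 in CLP and 5.07 and 4.88 in LMPP, against 4.43 and 4.50 in HSC. DN3 against CLP called 0 members, with 8.69% of all genes called (4.51% higher, 4.18% lower). Unadjusted, 3 members (3.85%) passed, against 20.0% of all genes. There Olfm5 differed by 0.24 ± 0.17, Olfr648 by 0.12 ± 0.19, Olfr649 by -0.16 ± 0.25 and Ubqlnl by -0.20 ± 0.23. LMPP against HSC called 0, with 2.94% of all genes called (1.23% higher, 1.71% lower), and CLP against LMPP called 0, with 1.14% (0.602% higher, 0.542% lower). Unadjusted, 6 members (7.69%) passed in LMPP against HSC, against 13.6% of all genes. In CLP against LMPP 4 members (5.13%) passed unadjusted, against 8.50% of all genes. Of the 953 other receptor genes DN3 against CLP called 4, LMPP against HSC 3 and CLP against LMPP 0. Without CLP replicate 2 the F test called Olfr618 and Olfr654, and DN3 against CLP called Olfr618, whose CLP arrays stood at 3.95 and 3.27. Olfr654 and Olfr618 are named because of these values.

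Genes that olfactory neurons use with their receptors were counted in the same contrast. Of 27 genes of olfactory transduction and receptor choice 25 were measured, and in ETP and DN2 against the others the limma fit called 1 higher and 1 lower, against 3.21% of all genes called. The higher one was Arrb2, a beta-arrestin that also serves many other receptors, at 8.73 to 9.35 in ETP and DN2 against 7.79 to 8.76. The lower one was Ebf1, a transcription factor of olfactory neurons and of B cells, at 4.26 to 4.44 against 4.09 to 9.32, where the high arrays were CLP. The olfactory G protein gene Gnal stood at 4.42 to 4.52 against 4.29 to 4.64, the channel gene Cnga2 at 3.52 to 3.65 against 3.58 to 4.03, and the olfactory marker protein gene Omp at 6.54 to 6.58 against 6.43 to 6.84. The median difference of the list in the fit was 0.0063, against -0.014 over all genes.

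The relatives and neighbours of the 4 named genes were counted in the same contrast, in which 1.95% of all genes were called higher and 3.21% in either direction. Of 8 measured olfactomedin genes and 3 measured ubiquilin genes the fit called 0. Of 8 measured Trim genes of the locus it called 2, both higher, namely Trim21, at 8.92 to 9.19 in ETP and DN2 against 8.0 to 8.87 and so without overlap, and Trim34a, at 7.95 to 8.32 against 7.16 to 8.06. Trim21 is an antibody receptor in the cytosol, and Trim34a is an interferon-inducible antiviral protein. Of 7 beta-globin genes 3 were measured, Hbb-y, Hbb-bh1 and Hbb-bh2, which are embryonic-type genes of the cluster, and 0 were called.

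Markers of other cells that a sorted thymic fraction could hold are given beside the block, and some of them moved with it. The 6 olfactory neuron markers, 6 of 6 measured, summed to 8.29 to 8.47 (log2 of summed intensities) in ETP and DN2 against 8.34 to 8.54. The 7 thymic epithelial markers, which include Foxn1, Psmb11 and Aire, summed to 8.69 to 8.79 against 8.66 to 9.16, with 1 called, Epcam, which was lower. Epcam averaged 4.99 in ETP and 5.36 in DN2, against 5.16 to 5.31 in the marrow populations, and its high arrays were DN3 (7.21). The 5 macrophage markers summed to 7.64 to 7.85 against 7.56 to 8.15, the 3 measured of 4 B cell markers to 6.62 to 6.74 against 6.46 to 7.65, the 3 measured of 6 erythroid markers to 7.42 to 7.68 against 7.48 to 8.09, and the 5 stromal markers to 9.34 to 9.73 against 9.13 to 9.78. The 6 mast cell markers summed to 9.96 to 11.1 against 7.15 to 10.4 because of 1 gene, Cpa3, at 9.76 to 11.06 against 4.82 to 10.28. Cpa3 was also high in HSC (10.11) and DN3 (8.89). The other 5 mast cell genes were not called in this contrast. The part of any of these cells in the levels of the block was not tested.

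Genes of natural killer (NK) and cytotoxic cells were higher in the same arrays as the block. A list of 16, which was drawn up after several of them had been seen to be high, had 7 called higher and 0 lower, with a median of 0.21 in the fit, and summed to 11.5 to 11.8 in ETP and DN2 against 10.1 to 11.7. Of all genes 1.95% were called higher. Fasl, the death receptor ligand of cytotoxic cells, stood at 6.69 to 8.03 in ETP and DN2 against 3.88 to 4.36. The receptor gene Cd160 stood at 7.23 to 7.69 against 4.80 to 5.90, and Cd244a, another receptor of NK cells, at 9.07 to 9.22 against 5.49 to 8.89. Nkg7, Ctsw and Gzmb, genes of cytotoxic granules, also had no overlap, and Gzma was called with overlap, at 11.18 in DN3. Other defining genes of NK cells were not called, among them Ncr1, at 4.08 to 4.40 against 3.92 to 4.34, Klrb1c, at 3.32 to 3.60 against 3.34 to 3.92, and the perforin gene Prf1, at 6.02 to 6.36 against 6.14 to 6.67. Of 10 neutrophil genes, a list drawn up in the same way, 3 were called higher and 0 lower, namely Clec4e, S100a8 and S100a9, and the list summed to 10.4 to 11.7 against 9.10 to 12.1. The part of such cells in the levels of the block was not tested. In bulk samples fewer cells with a transcript and less transcript per cell cannot be told apart.

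The genes of the whole table whose 11 values were most like those of Olfm5 included 3 of its neighbours. Among 3116 other genes with a range of at least 1, Pearson's r over the 11 arrays was highest for Olfr648 (0.986) and Olfr649 (0.969), and Ubqlnl had rank 8 (0.934). These ranks were largely set by the choice of Olfm5 for its step in ETP and DN2. Olfr648, Olfr649 and Ubqlnl pass the filter on range only through ETP and DN2, since over the other 8 arrays their ranges were 0.71, 0.66 and 0.55. Between them stood Trim55 (0.964), a muscle ubiquitin ligase, Bpifc (0.949), Mcoln3 (0.947), a lysosomal channel, Gm9920 (0.945) and Fasl (0.935). None of these 5 is on chromosome 7. Fasl stood at 7.94 and 8.03 in ETP and 6.69 in DN2, against 3.88 to 4.36 elsewhere, and so was lower in DN2 than in ETP where Olfm5 was higher. The 11 points share arrays and populations, so r describes a common step between 3 and 8 arrays and has no p. Ubqln5 had an r of 0.125.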

How the data were processed

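Total RNA of sorted C57BL/6J cells was labelled and hybridised to 11 arrays. The authors deposited RMA output (background correction, quantile normalization, probe set summary), per the submitters' processing notes, and its range shows log2 intensity. The sources used here name no version, chip definition or build. No detection calls were used here. The number of arrays and, for dim genes, the background intensity limit the precision.

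Of 35556 probe sets 21789 have 1 gene symbol in the platform annotation. Per gene the probe set brightest on average was kept, which left 19938 genes, with no filter on dim genes. Names and gene order come from RefSeq (GRCm38.p6). Groups follow the sample titles.

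All genes were fitted with limma 3.58.1 in R 4.3.3, with 1 mean per population, 5 residual degrees of freedom and DN2 assumed to vary like the rest. Contrasts were two-sided and Benjamini-Hochberg adjusted over all genes, with calls at adjusted p under 0.05. The fit was tested on simulated data. Python 3.11.15 and pandas 2.3.3 served for the rest. The NK and neutrophil lists were added last. The members, lists, motifs and the naming rule were chosen with earlier results of these data known. The rule names the 4 genes other than receptors, members set apart or called, the 3 brightest and dimmest receptors, receptors within 10 genes of Olfm5 and the 8 genes most like it. Alternatives were another probe set rule, a dim gene filter, 2 normalizations, another prior, a replicate block, other size thresholds and leaving out each array.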

Additional observations from a re-analysis of the deposited data

How the results depend on the processing

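Of 204 differences recomputed for single genes 201 stayed within the replicate spread. No difference of the 7 members called in ETP and DN2 changed sign. Among members not called, small differences changed sign in some alternatives, those of Ubqln5 (-0.18 to 0.19), Olfr645 (-0.098 to 0.016) and Olfr640 (-0.0105 to 0.043). Of 119 recomputed counts of members 17 held other members than the full fit, 9 of them by losing Olfr643 from the 7 called in ETP and DN2. The dim gene filter removes Olfr643 before the fit, so its loss there was set by the filter. The 4 members set apart in ETP and DN2 were 4 or 5 in 11 fits that each left out 1 array and 4 to 6 under the other alternatives. Olfr644 joined them without HSC replicate 2, without ETP replicate 2, after a second quantile normalization and after median centring, Trim6 at 1.5-fold, and Olfr643 with Trim6 at no size threshold. The Olfm5 difference ran from 2.75 without DN2 replicate 1 to 3.16 on leaving out 1 array. Counts of called members ran from 6 to 7 for ETP and DN2 against the others, from 0 to 1 for DN3 against CLP and from 0 to 2 for the F test when 1 array was left out. They were 0 in every alternative for DN2 against ETP, LMPP against HSC and CLP against LMPP. Ubqln5 moved from -0.0015 to 0.19 without ETP replicate 1 and to -0.18 without DN2 replicate 1, and the cause was not tested. With the replicate number as a block the Olfm5 difference was 3.04, 4 members were set apart, 6 were called in ETP and DN2, and 0 in the other comparisons. The block tests a number only, because the deviations of same-numbered arrays correlated from -0.26 to 0.28 over 10 population pairs. Levels near those of silent receptors limit the folds.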
